A study of Mus musculus with 20 samples.

Results

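The genes described here make and break down glycogen in the mouse heart: Gys1, Gyg, Gbe1, Ugp2, Pygm, Pygb, Phka1, Phkg1 and Ppp1r3c. Every array probe whose gene name, current or older, is one of these symbols was taken, which gave 12 probes of 41174 for 9 genes of 27670 names. Pygb, Ugp2 and Ppp1r3c have 2 probes each and the other 6 genes have 1. All 9 genes were among the 14567 genes tested. Phka1 was barely measurable, since its probe was well above background on 3 of 20 arrays. Gys1 was so on 19 and the other 7 genes on all 20.

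Each of the 20 arrays compared RNA of 1 heart, in Cy5, with 1 common Cy3 reference, RNA pooled from entire C57BL/6 newborns at postnatal day 1. MuRF1 +/+ mice carry Trim63, which encodes the muscle ubiquitin ligase MuRF1, and MuRF1 -/- mice lack it; the labels do not name the tissue or promoter of the deletion, and the design text calls the groups strain-matched without naming the strain of the heart donors. In each genotype 3 mice had 8 weeks of chow, 4 had chow with 0.05% w/w fenofibrate for 3 weeks and 3 had the same feed for 8 weeks. Fenofibrate activates the nuclear receptor PPAR alpha, and the title of the study puts MuRF1 beside the heart growth that the drug induces. All chow hearts carry the 8-week label, so the 3-week hearts have no chow group of their own duration, and responses at 3 and 8 weeks in a genotype are measured against the same 3 chow hearts. The design text gives 3 to 8 weeks as an age, while the sample labels give these numbers as time on feed.

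Glycogen is the store of glucose in muscle. Its synthesis starts from UDP-glucose, made by the pyrophosphorylase Ugp2, on the primer protein glycogenin (Gyg), and glycogen synthase (Gys1, the muscle form) then lengthens the chains while the branching enzyme (Gbe1) adds side chains. Glycogen phosphorylase, in a muscle form (Pygm) and a brain form (Pygb), releases glucose 1-phosphate from chain ends once phosphorylase kinase has activated it, a complex in which Phka1 is a regulatory and Phkg1 the catalytic subunit in muscle. Ppp1r3c targets protein phosphatase 1 to glycogen, where the phosphatase activates the synthase and turns the phosphorylase off. In the heart glycogen serves as a reserve when work rises or oxygen falls.

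Values are log2 ratios of heart over reference, so that 1 unit is a doubling, and a level compares a heart with the same gene in newborn mice, never one gene with another. Differences between groups are log2 differences ± SE from 1 limma model of all 20 arrays, and a gene passed when its Benjamini-Hochberg adjusted p over all 14567 genes was under 0.05.

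Gys1, Gbe1, Pygm and Phkg1 shared a pattern described further on, lower levels after 3 weeks of fenofibrate in both genotypes. The 250 bases before their transcription starts are shown because all 4 fell at that time. They are read 5′ to 3′ on the strand of the gene, from RefSeq on build GRCm38.p6, and capitals mark every E-box (CANNTG, the same on both strands), a motif bound by helix-loop-helix factors including those of muscle. The windows are chr7:45434589-45434838 on the plus strand for Gys1, chr16:70313699-70313948 on the plus strand for Gbe1, chr19:6384158-6384407 on the plus strand for Pygm and chr5:129879089-129879338 on the minus strand for Phkg1.
Gys1: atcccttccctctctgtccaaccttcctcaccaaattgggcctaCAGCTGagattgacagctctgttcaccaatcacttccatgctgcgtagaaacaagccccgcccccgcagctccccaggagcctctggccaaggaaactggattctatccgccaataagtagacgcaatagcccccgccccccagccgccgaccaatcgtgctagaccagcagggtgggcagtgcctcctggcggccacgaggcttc
Gbe1: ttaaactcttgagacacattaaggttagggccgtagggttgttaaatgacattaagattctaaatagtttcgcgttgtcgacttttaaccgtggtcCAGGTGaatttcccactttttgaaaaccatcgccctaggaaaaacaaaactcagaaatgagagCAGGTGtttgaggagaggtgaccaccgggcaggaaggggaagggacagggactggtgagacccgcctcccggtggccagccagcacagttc
Pygm: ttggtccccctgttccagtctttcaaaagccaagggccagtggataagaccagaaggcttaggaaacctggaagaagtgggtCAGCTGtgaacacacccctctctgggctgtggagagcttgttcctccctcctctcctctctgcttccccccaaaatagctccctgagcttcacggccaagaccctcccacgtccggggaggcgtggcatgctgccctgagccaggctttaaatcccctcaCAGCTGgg
Phkg1: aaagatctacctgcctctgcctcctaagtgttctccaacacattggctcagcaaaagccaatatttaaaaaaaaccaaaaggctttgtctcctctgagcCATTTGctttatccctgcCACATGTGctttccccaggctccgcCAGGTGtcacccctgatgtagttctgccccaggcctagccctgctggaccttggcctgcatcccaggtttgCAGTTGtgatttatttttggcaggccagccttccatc

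Promoter windows matched for 9 of 9 genes, with 2 windows for Ugp2, 10 in all. Gys1 had 1 E-box, Gbe1 and Pygm 2 each and Phkg1 5, of which the pair at 133 and 131 bases before the start overlap. An E-box was also common among all 32851 windows of the table, 66.2% of which held one. The GC box (GGGCGG on either strand) occurred 2 times in the Gys1 window, at 149 and 73 bases before the start, and not in those of Gbe1, Pygm or Phkg1, while 32.7% of all windows held it. The nuclear receptor half-site AGGTCA (14% of all windows), its direct repeat with 1 base of any kind between the copies (0.0335%), the TATA box TATAAA (12.4%) and the MEF2 consensus (2.92%) had no match on either strand in these 10 windows. The stricter E-box CACGTG, a special case of CANNTG, was found in the Ppp1r3c window alone, 104 bases before the start, and in 6.02% of all windows. A match is a run of letters and was not examined for binding.

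Trim63 separated the genotypes on every array, at -1.19 to -0.49 in the 10 MuRF1 -/- hearts and 0.79 to 2.85 in the 10 MuRF1 +/+ hearts. Pdk4, a known PPAR alpha target, was -1.06 to -0.31 in the 6 chow hearts, -0.88 to 0.18 in the 8 hearts at 3 weeks and 1.20 to 2.87 in the 6 hearts at 8 weeks. The share of probes well above background was 34% to 51.9% by array. In a principal component analysis 2 arrays lay away from the rest, MuRF1 +/+ 8-week replicate 2 and MuRF1 -/- 3-week replicate 4. They also had the lowest shares (34% and 34.3%) and are called the arrays that stood apart. Not counted among them, MuRF1 +/+ 8-week replicate 3 had the next lowest share (36.9%). Its second component was 18.9, beside 45.9 and 12.6 for those 2 arrays. The mean of the Y-linked Ddx3y and Eif2s3y was 1.18 to 1.62 in the 6 chow hearts, -1.39 to -0.24 in the 8 hearts at 3 weeks and -0.92 to -0.52 in the 3 MuRF1 +/+ hearts at 8 weeks. It was 1.45, -0.81 and 1.34 in replicates 1, 2 and 3 of MuRF1 -/- at 8 weeks. The labels give no sex, so sex and diet cannot be told apart in the comparisons with chow of MuRF1 +/+ hearts and of 3-week MuRF1 -/- hearts. The group mean of the Y-linked level also differed between MuRF1 -/- hearts at 3 and 8 weeks, and between genotypes at 8 weeks. The arrays came from 5 slides, told apart by their scan, and each within-slide value below is 1 array against 1.

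The label of heart was borne out by the 8 cardiomyocyte markers, whose mean was 2.84 to 3.14 in the 6 groups, all above the newborn reference. The 8 markers of fast skeletal muscle, another tissue rich in glycogen enzymes, had means of -2.91 to -2.49, and 0 of them passed in any comparison. Endothelial markers passed upward in 3 of 8 in each of the 3-week comparisons with chow and in MuRF1 +/+ at 8 weeks, and in 0 of 8 in MuRF1 -/- at 8 weeks. Their mean by array was 0.15 to 0.16 (chow), 0.40 to 0.73 (3 weeks) and 0.36 to 1.27 (8 weeks) in MuRF1 +/+, and 0.058 to 0.22, 0.39 to 0.80 and 0.030 to 0.19 in MuRF1 -/-. Fibroblast markers passed upward in 4, 3 and 2 of 7 in MuRF1 +/+ at 3 weeks, MuRF1 -/- at 3 weeks and MuRF1 +/+ at 8 weeks. Their array means ranged from -3.50 to -3.35 (chow), -2.94 to -2.54 (3 weeks) and -3.45 to -2.19 (8 weeks) in MuRF1 +/+, and from -3.58 to -2.98, -2.98 to -2.38 and -4.13 to -3.58 in MuRF1 -/-. Adipocyte markers passed upward in 1 of 5 in MuRF1 +/+ at 8 weeks and in none of the other comparisons with chow. Their array means were -2.25 to -2.20 (chow), -1.99 to -1.31 (3 weeks) and -2.15 to -1.10 (8 weeks) in MuRF1 +/+, and -2.39 to -2.13, -2.24 to -1.26 and -2.36 to -2.05 in MuRF1 -/-, the 2 highest being the arrays that stood apart. Endothelial and fibroblast group means were higher than on chow in the groups in which glycogen genes passed as lower, and not in MuRF1 -/- at 8 weeks. The adipocyte mean was slightly higher than on chow there too (-2.16 against -2.23). Smooth muscle markers passed downward in 2 of 5 in MuRF1 +/+ at 3 and 8 weeks and in MuRF1 -/- at 3 weeks. Their median difference from chow was -0.066 and 0.38 in MuRF1 +/+ at 3 and 8 weeks, and -0.47 and -0.39 in MuRF1 -/-. The list thus had no single direction in MuRF1 +/+ at 8 weeks, where its mean was -1.09 against -1.05 on chow. The part of other cell types in the results was not tested, and in whole tissue fewer cells of a type and less RNA per cell cannot be told apart.

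At 3 weeks 4 of the 9 glycogen genes fell in MuRF1 +/+ (Gys1, Gbe1, Pygm and Phkg1), where 24.2% of all tested genes passed and 12.3% fell. The same 4 fell in MuRF1 -/-, where 26.4% passed and 12.1% fell. None of the 9 rose in either genotype, where 12.0% of all genes rose in MuRF1 +/+ and 14.3% in MuRF1 -/-. At 8 weeks 3 fell in MuRF1 +/+ (Gys1, Gbe1 and Ppp1r3c), where 14.0% of all genes passed, 5.26% upward and 8.74% downward. In MuRF1 -/- 0 of 9 passed in limma at 8 weeks, where 1.83% of all genes did, 0.851% upward and 0.982% downward. There 0 members and 1845 of all 14567 genes had an unadjusted p under 0.05.

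Member medians were -0.28 at 3 weeks and -0.58 at 8 weeks in MuRF1 +/+, and -0.26 and 0.016 in MuRF1 -/-. Without 8-week MuRF1 +/+ replicate 2, one of the arrays that stood apart, the second of these was -0.20. At 3 weeks the heart channel alone gave -0.11 in MuRF1 +/+, a background fit on all spots gave -0.14 in MuRF1 -/-, and Agilent's ratio gave -0.60 and -0.51. Over all tested genes the medians of these comparisons lay between -0.0080 and 0.029. Groups did not overlap for 5 of 9 members at 3 weeks in each genotype, against 45.4% of all genes in MuRF1 +/+ and 32.0% in MuRF1 -/-. At 8 weeks they did not overlap for 3 of 9 (29.5% of all genes) in MuRF1 +/+ and for 1 of 9 (24.8%) in MuRF1 -/-. Groups without overlap were thus common among all genes.

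Between 3 and 8 weeks of fenofibrate the genotypes are given side by side. In MuRF1 -/- 5 members were higher at 8 weeks than at 3 (Gys1, Gbe1, Pygm, Pygb and Phkg1) and Ugp2 was lower, 6 of 9 where 31.5% of all genes passed, 13.5% higher and 18.0% lower. In MuRF1 +/+ Phkg1 was higher and Ppp1r3c lower, 2 of 9 where 17.5% of all genes passed, 7.89% higher and 9.58% lower. Values did not overlap between 3 and 8 weeks for 6 of 9 members in MuRF1 -/- (39.8% of all genes) and 2 of 9 in MuRF1 +/+ (24.4%). This comparison uses no chow heart, but in MuRF1 -/- its groups differ in the Y-linked level. That level was low in all 3-week hearts and high in all 8-week hearts but replicate 2. Ddx3y and Eif2s3y themselves passed as higher at 8 weeks there (1.51 and 1.71), so sex and time on feed cannot be told apart. With the Y-linked mean as a covariate 2 members passed there.

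**Figure D1:**
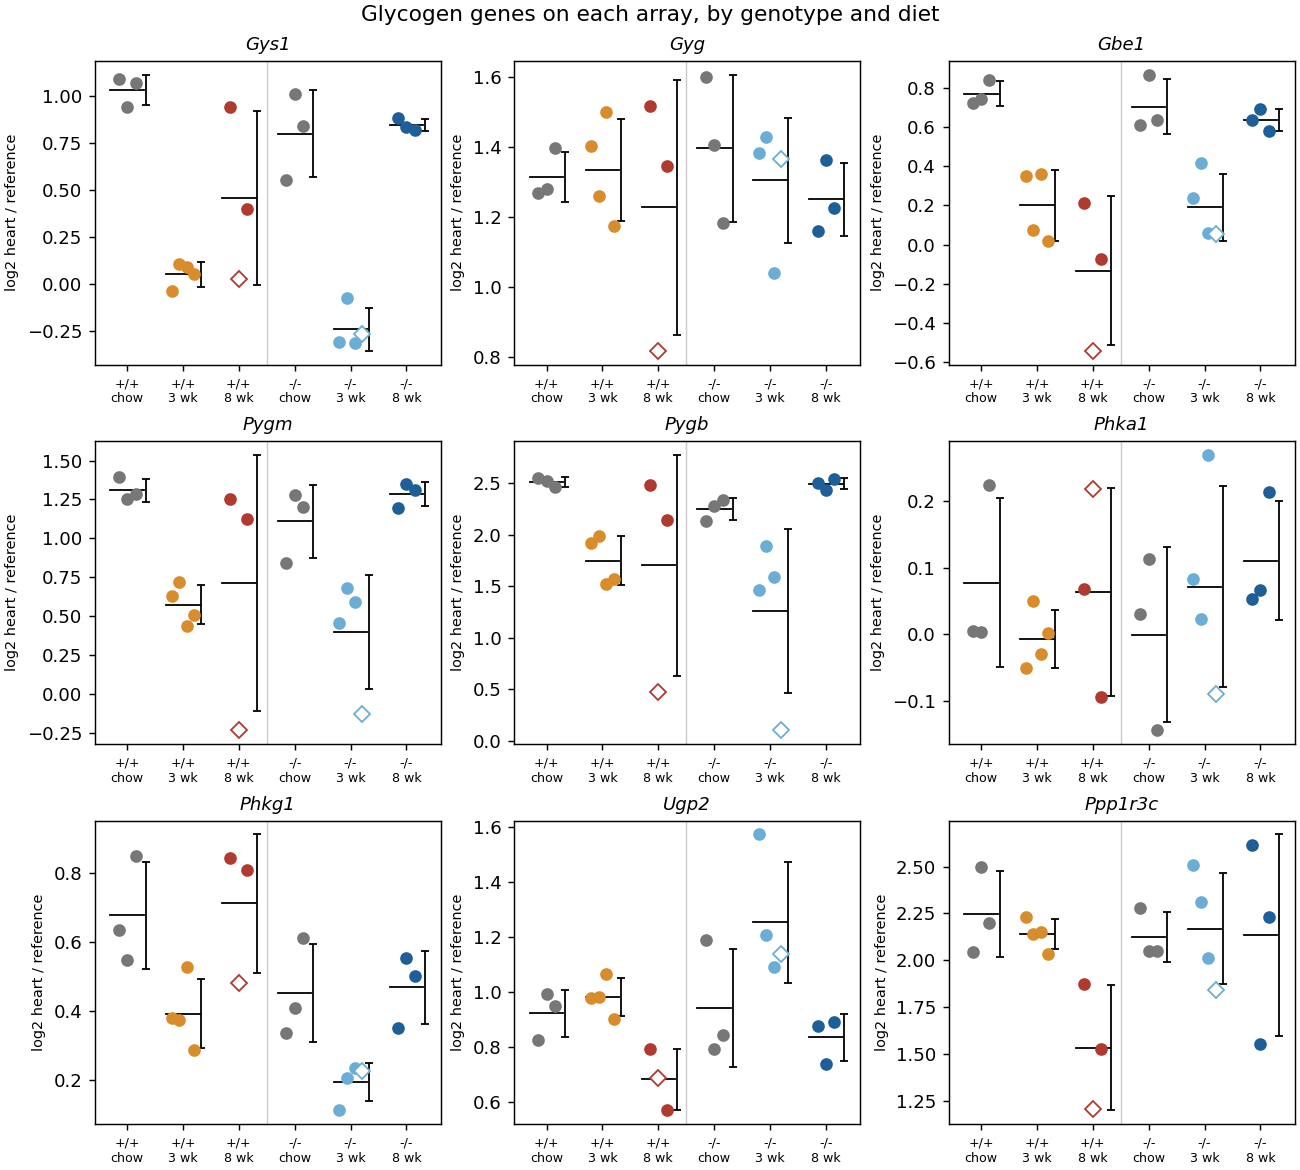
Log2 ratio of heart over reference for each glycogen gene on each array, by genotype and diet (x axis); points are arrays, the line is the group mean and the bar its SD, and open diamonds are the 2 arrays that stood apart. Gys1 at 3 weeks lies between -0.32 and 0.11, below every chow heart, whereas Gyg and Phka1 overlap in all groups.

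Ugp2 supplies UDP-glucose. Its level was 0.83, 0.99 and 0.95 on MuRF1 +/+ chow arrays, 0.98, 0.98, 1.07 and 0.90 after 3 weeks and 0.79, 0.69 and 0.57 after 8 weeks. The MuRF1 -/- arrays gave 1.19, 0.79 and 0.84 on chow, 1.57, 1.21, 1.09 and 1.14 at 3 weeks and 0.88, 0.74 and 0.89 at 8 weeks. In both genotypes all 8-week hearts lay below all 3-week hearts. The difference of 8 weeks from 3 weeks passed in MuRF1 -/- (-0.42 ± 0.12, 1.34-fold lower, adjusted p = 0.011) and not in MuRF1 +/+ (-0.30 ± 0.12, adjusted p = 0.086).

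The Ugp2 call depended on the probe. The second, dimmer probe, also well above background on all 20 arrays, differed by 0.0012 ± 0.29 between 8 and 3 weeks in MuRF1 -/-, and the 2 probes correlated at r = 0.498 over 20 arrays. With the mean over both probes the difference was -0.21 (adjusted p = 0.42), the highest of 14 settings whose adjusted p began at 0.00032. It also lost its call without 8-week replicate 2 (-0.37, adjusted p = 0.056). Within slides the difference was -0.47 and -0.25. At 3 weeks against chow in MuRF1 -/- Ugp2 was 0.31 ± 0.12 higher (adjusted p = 0.057), short of the threshold.

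Gyg, the self-glycosylating primer of glycogen, passed in no comparison. Chow arrays read 1.27, 1.28 and 1.40 in MuRF1 +/+, 3-week arrays 1.40, 1.26, 1.50 and 1.17, and 8-week arrays 1.52, 0.82 and 1.35. The MuRF1 -/- arrays read 1.60, 1.40 and 1.18 (chow), 1.38, 1.43, 1.04 and 1.36 (3 weeks), and 1.16, 1.36 and 1.23 (8 weeks). In each comparison of 2 groups the values overlap. The difference at 3 weeks from chow in MuRF1 +/+ was 0.019, with a 95% interval of -0.30 to 0.33, and in MuRF1 -/- -0.092, with an interval of -0.41 to 0.22. At 8 weeks the intervals were -0.43 to 0.25 and -0.48 to 0.19.

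Gys1, muscle glycogen synthase, was lower at 3 weeks in both genotypes. On MuRF1 +/+ arrays it was 1.09, 0.94 and 1.07 on chow, -0.04, 0.11, 0.09 and 0.05 after 3 weeks and 0.94, 0.02 and 0.40 after 8 weeks. Without MuRF1 it was 0.55, 1.01 and 0.84 on chow, -0.31, -0.07, -0.32 and -0.27 after 3 weeks and 0.88, 0.84 and 0.82 after 8 weeks. All 8 hearts at 3 weeks lay below all 6 chow hearts, and 1 of the MuRF1 -/- hearts at 3 weeks was not well above background. At 8 weeks the MuRF1 -/- hearts were inside the chow range, and the MuRF1 +/+ hearts ran from a 3-week level to a chow level.

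Gys1 was 1.98-fold lower at 3 weeks than on chow in MuRF1 +/+ (-0.98 ± 0.15, 95% interval -1.29 to -0.67, adjusted p = 0.00015) and 2.06-fold lower in MuRF1 -/- (-1.04 ± 0.15, interval -1.35 to -0.73, adjusted p = 6.7e-05). Within slides, 1 array against 1, the MuRF1 +/+ differences were -1.13 and -0.83 and the 3 MuRF1 -/- differences ran from -1.16 to -0.86. Between 3 and 8 weeks of fenofibrate it was 2.13-fold higher at 8 weeks in MuRF1 -/- (1.09 ± 0.15, adjusted p = 3.4e-05, within slides 0.91 and 1.09). The sizes depended on the background correction. Agilent's own ratio gave -1.60 and -2.29 at 3 weeks in MuRF1 +/+ and MuRF1 -/- and 2.48 from 3 to 8 weeks in MuRF1 -/-, the last of which was 1.60 in the series matrix. Both MuRF1 -/- calls held under all 20 alternatives that gave a value, and the MuRF1 +/+ call under 19 of 20. The exception was the Y-linked mean as a covariate, which left the difference at -1.01 with adjusted p = 0.057, the highest of 13 settings whose lowest was 2.5e-08.

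At 8 weeks Gys1 was 1.49-fold lower than on chow in MuRF1 +/+ (-0.58 ± 0.16, adjusted p = 0.021), with overlapping groups, since replicate 1 stood at 0.94. The arrays of the same slide gave -1.04 in one pair and 0.0032 in the other. Without replicate 2, one of the arrays that stood apart, the difference was -0.36 (adjusted p = 0.13), and the call was also lost without chow replicate 1 (0.073), chow replicate 3 (0.086) or 8-week replicate 3 (0.052). Leaving out 1 array gave adjusted p from 0.00041 to 0.13, and 13 other settings 0.00017 to 0.22, where the call was lost with the Y-linked covariate (0.22), only the compared groups (0.21), Agilent's ratio (0.15), the heart channel alone (0.051) or both arrays that stood apart left out (0.11). In MuRF1 -/- the 8-week difference from chow was 0.047, with an interval of -0.28 to 0.38.

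Gbe1, the branching enzyme, was lower in every fenofibrate group but MuRF1 -/- at 8 weeks. In MuRF1 +/+ it was 0.72, 0.74 and 0.84 on chow, 0.35, 0.07, 0.36 and 0.02 at 3 weeks and 0.21, -0.54 and -0.07 at 8 weeks. Levels in MuRF1 -/- were 0.61, 0.87 and 0.64 on chow, 0.24, 0.41, 0.06 and 0.06 at 3 weeks and 0.64, 0.69 and 0.58 at 8 weeks. No MuRF1 +/+ heart on fenofibrate reached the chow range, and in MuRF1 -/- this held for the 3-week hearts.

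The largest Gbe1 difference was that of MuRF1 +/+ at 8 weeks, 1.87-fold lower than on chow (-0.90 ± 0.16, 95% interval -1.23 to -0.58, adjusted p = 0.0014, within slides -1.38 and -0.53). It was lost with the Y-linked covariate (0.087) or only the compared groups in the fit (0.096), of 1.7e-05 to 0.096 over 14 settings. At 3 weeks it was 1.48-fold lower in MuRF1 +/+ (-0.57 ± 0.15, adjusted p = 0.0084, within slides -0.67 and -0.37) and 1.43-fold lower in MuRF1 -/- (-0.51 ± 0.15, adjusted p = 0.014, within slides -0.58 to -0.37). In MuRF1 -/- Gbe1 was 1.36-fold higher at 8 weeks than at 3 (0.44 ± 0.15, adjusted p = 0.026, within slides 0.28 and 0.52). The calls against chow held without any 1 array, except the MuRF1 -/- one without chow replicate 2 (-0.43, adjusted p = 0.076, of 0.0094 to 0.076 over the arrays left out).

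The later rise of Gbe1 in MuRF1 -/- was lost without 3-week replicates 3 or 4 or any of the 3 arrays at 8 weeks, with adjusted p from 0.015 to 0.085 over the 7 arrays. It was also lost with slide as a block (0.38, adjusted p = 0.071, of 0.0032 to 0.10 over the 14 settings).

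**Figure D2:**
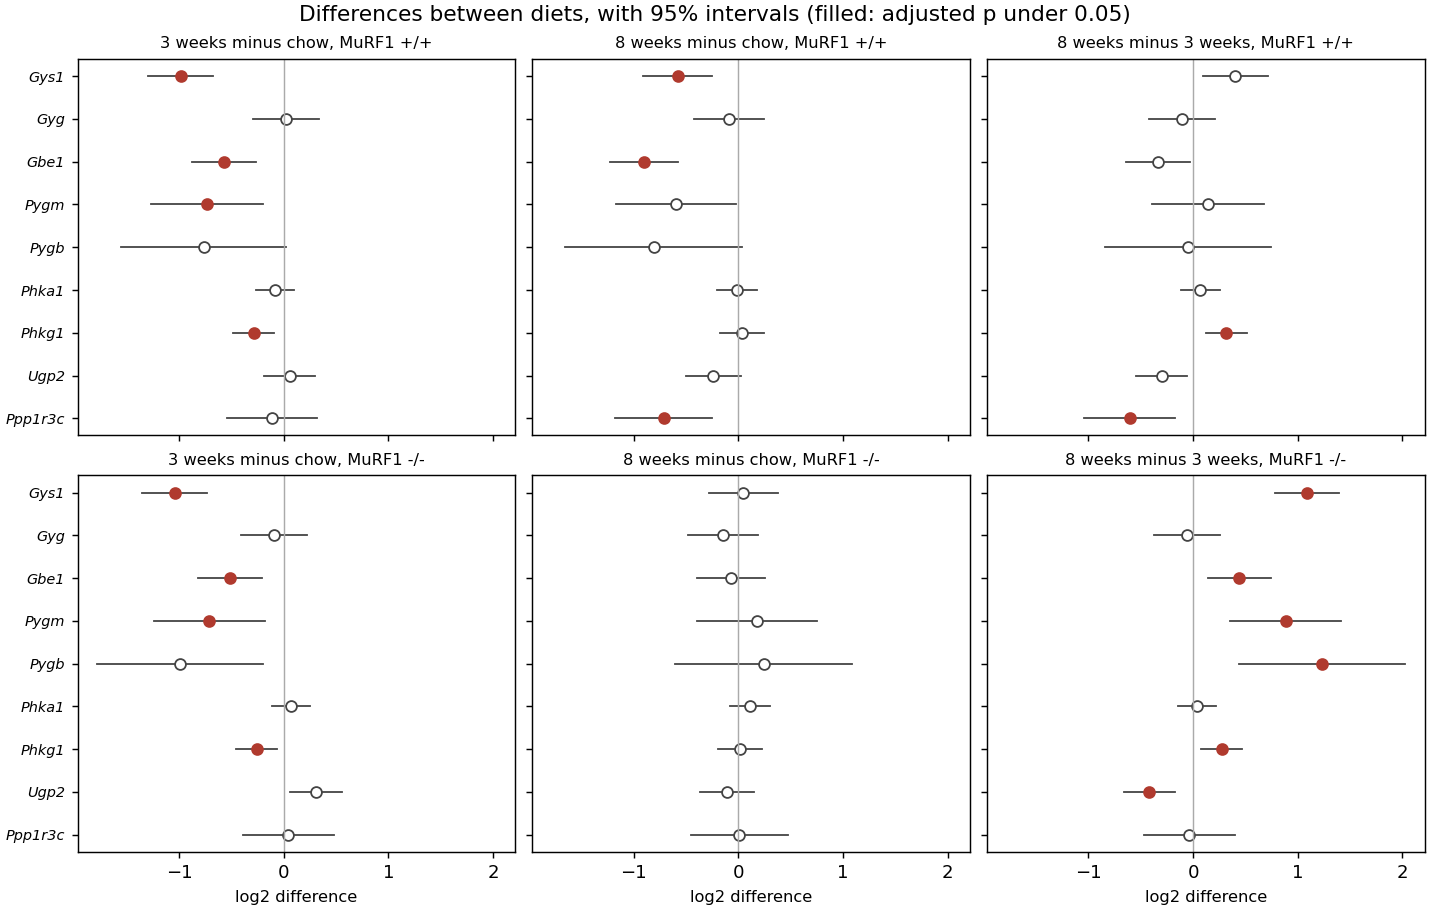
Log2 differences between diets for the 9 glycogen genes (x axis) with 95% intervals, by comparison; filled points have an adjusted p under 0.05. The 3-week panels hold the same 4 filled genes in both genotypes, the 8-week panel of MuRF1 +/+ holds 3 and that of MuRF1 -/- holds 0.

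Pygm, muscle glycogen phosphorylase, followed Gys1 at 3 weeks with a wider spread. In MuRF1 +/+ it was 1.39, 1.25 and 1.29 on chow, 0.63, 0.72, 0.44 and 0.51 at 3 weeks and 1.25, -0.23 and 1.12 at 8 weeks. Hearts of MuRF1 -/- mice had 0.84, 1.28 and 1.20 on chow, 0.46, 0.68, 0.59 and -0.13 at 3 weeks and 1.20, 1.35 and 1.31 at 8 weeks. All 8 hearts at 3 weeks lay below all chow hearts. The 2 lowest values of all 20, -0.23 and -0.13, were those of the 2 arrays that stood apart.

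Pygm was 1.66-fold lower at 3 weeks in MuRF1 +/+ (-0.73 ± 0.25, adjusted p = 0.042, within slides -0.76 and -0.53) and 1.63-fold lower in MuRF1 -/- (-0.71 ± 0.25, adjusted p = 0.047, within slides -0.61 to -0.39). Both calls lay close to the threshold. The first was lost without any 1 of the 7 arrays (adjusted p from 0.055 to 0.12), and the second without any but chow replicate 1 and 3-week replicate 2 (0.039 to 0.15). With the Y-linked covariate the differences were -1.10 and -1.06 (adjusted p = 0.19 and 0.21). Without both arrays that stood apart they were -0.73 and -0.53, with adjusted p = 2.6e-05 in a range of 2.1e-05 to 0.19 over 14 settings, and 0.00097 in a range of 0.00097 to 0.21.

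In MuRF1 -/- Pygm was 1.85-fold higher at 8 weeks than at 3 (0.88 ± 0.25, adjusted p = 0.013, within slides 0.67 and 1.44), a call that held without any 1 array. It was lost with slide as a block (0.77, adjusted p = 0.070, the highest of 14 settings from 5.7e-05). At 8 weeks in MuRF1 +/+ Pygm was -0.59 ± 0.27 from chow (adjusted p = 0.14), where replicates 1 and 3 were near the chow range and replicate 2 far below it.

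Pygb, the brain form of phosphorylase, which the heart also expresses, has 2 probes that gave different calls. The brighter one read 2.55, 2.52 and 2.46 on MuRF1 +/+ chow, 1.91, 1.98, 1.52 and 1.57 at 3 weeks and 2.48, 0.48 and 2.14 at 8 weeks. MuRF1 -/- arrays read 2.13, 2.28 and 2.33 on chow, 1.46, 1.89, 1.58 and 0.10 at 3 weeks and 2.50, 2.44 and 2.54 at 8 weeks. Again the 3-week hearts lay below the chow hearts, and the 2 arrays that stood apart were the lowest.

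On this probe Pygb did not pass against chow at 3 weeks (-0.76 ± 0.38, adjusted p = 0.15, in MuRF1 +/+ and -0.99 ± 0.38, adjusted p = 0.060, in MuRF1 -/-). It was 2.35-fold higher at 8 weeks than at 3 in MuRF1 -/- (1.23 ± 0.38, adjusted p = 0.018), with 0.55 and 2.44 within slides, the larger from the array that stood apart. The heart channel alone gave 1.95. Without that array the difference was 0.85 (adjusted p = 6.2e-05 when both such arrays are left out, of 6.2e-05 to 0.071 over 14 settings). Its call was lost without 8-week replicate 1 (1.23, adjusted p = 0.050) or replicate 3 (1.21, adjusted p = 0.058).

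The dimmer Pygb probe, also well above background on all 20 arrays, read 2.96, 3.03 and 2.95 on MuRF1 +/+ chow, 1.54, 1.77, 0.87 and 1.14 at 3 weeks and 2.94, 0.42 and 1.40 at 8 weeks. The MuRF1 -/- arrays gave 1.79, 2.61 and 2.34 on chow, 0.96, 1.31, 1.14 and 0.11 at 3 weeks and 2.41, 2.72 and 3.02 at 8 weeks. The 2 probes correlated at r = 0.910 over 20 arrays. In a fit of all 20840 probes above the same filter, the dimmer probe passed lower at 3 weeks in MuRF1 +/+ (-1.65 ± 0.40, adjusted p = 0.0058), at 3 weeks in MuRF1 -/- (-1.37 ± 0.40, adjusted p = 0.017) and at 8 weeks in MuRF1 +/+ (-1.40 ± 0.43, adjusted p = 0.040). It was also higher at 8 weeks than at 3 in MuRF1 -/- (1.84 ± 0.40, adjusted p = 0.0020).

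**Figure D3:**
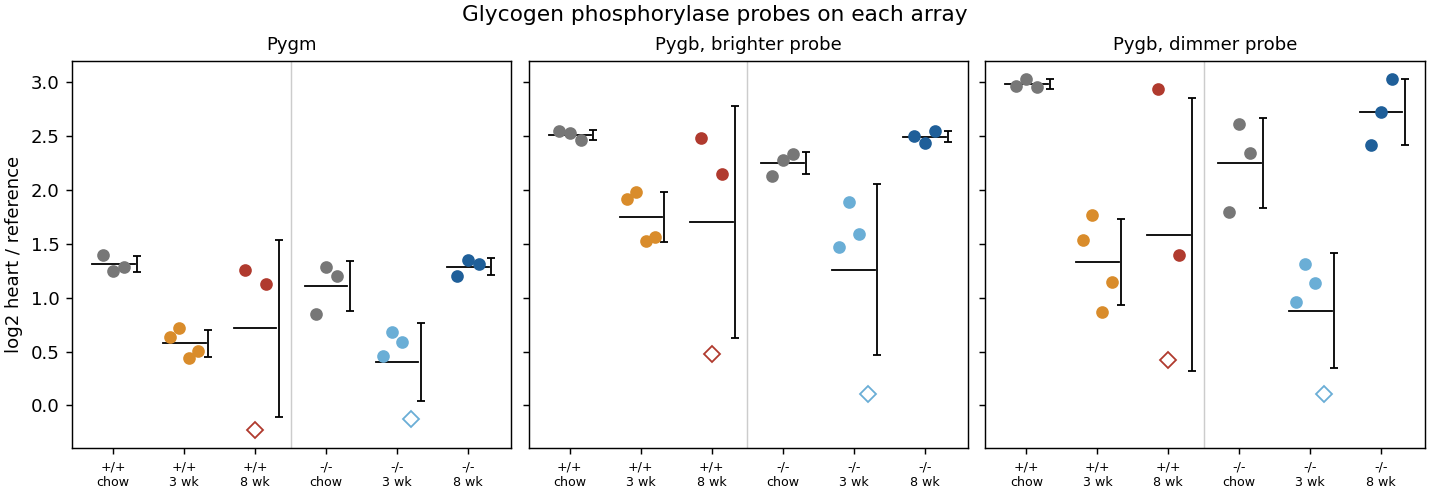
Log2 ratio of heart over reference (y axis) on each array for the Pygm probe and both Pygb probes, by genotype and diet (x axis), with group mean, SD bars and open diamonds for the arrays that stood apart. All 3 probes are lower in the 3-week hearts than on chow, and the diamonds are the lowest points of each panel.

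Phkg1, the catalytic subunit of muscle phosphorylase kinase, differed little in size in these values and was dim. Its group means in the heart channel were 6.14 to 6.58 in log2, beside 5.84 to 5.96 for Phka1. In MuRF1 +/+ the Phkg1 ratio was 0.63, 0.55 and 0.85 on chow, 0.38, 0.37, 0.53 and 0.29 at 3 weeks and 0.84, 0.48 and 0.81 at 8 weeks. Without MuRF1 it was 0.34, 0.41 and 0.61 on chow, 0.11, 0.21, 0.23 and 0.23 at 3 weeks and 0.35, 0.55 and 0.50 at 8 weeks. In each genotype the 3-week hearts lay below the chow hearts, and the 8-week hearts overlapped chow.

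At 3 weeks Phkg1 was 1.22-fold lower than on chow in MuRF1 +/+ (-0.28 ± 0.093, adjusted p = 0.033, within slides -0.25 and -0.17) and 1.19-fold lower in MuRF1 -/- (-0.26 ± 0.093, adjusted p = 0.049, within slides -0.38 to -0.20). From 3 to 8 weeks it was 1.25-fold higher in MuRF1 +/+ (0.32 ± 0.093, adjusted p = 0.024, within slides 0.47 and 0.52) and 1.21-fold higher in MuRF1 -/- (0.27 ± 0.093, adjusted p = 0.032, within slides 0.28 and 0.35). The sizes depended on the values used. At 3 weeks they were -0.60 (adjusted p = 0.21, of 0.0021 to 0.32 over 14 settings) and -1.13 (0.016, of 0.016 to 0.47) in Agilent's own ratio, against -0.11 in MuRF1 +/+ with the heart channel alone and -0.14 in MuRF1 -/- where the background fit used all spots. For the later difference Agilent's ratio gave 1.22 and 1.02, and the series matrix 0.61 and 0.52.

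The calls of these small Phkg1 differences depended on single arrays. The 3-week call in MuRF1 +/+ held only without chow replicate 2 or 3-week replicate 3 (adjusted p from 0.025 to 0.21 over the 7 arrays), and in MuRF1 -/- only without chow replicate 1 (0.038 to 0.25). The later difference was lost in MuRF1 +/+ without 3-week replicates 1, 2 or 4 or 8-week replicates 1 or 3 (0.0027 to 0.097), and in MuRF1 -/- without 3-week replicate 1 or 8-week replicates 2 or 3 (0.028 to 0.13).

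Phka1, the muscle form of the regulatory alpha subunit, is encoded on the X chromosome. It was well above background on 0 of 10 MuRF1 +/+ arrays, 0 of 3 MuRF1 -/- chow arrays, 2 of 4 at 3 weeks and 1 of 3 at 8 weeks, so its values, -0.14 to 0.27 over all arrays, are mostly limits and no fold is given. It passed in no comparison, and groups overlapped in all of them.

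Ppp1r3c brings protein phosphatase 1 to glycogen. In MuRF1 +/+ it was 2.04, 2.50 and 2.20 on chow, 2.23, 2.14, 2.15 and 2.03 at 3 weeks and 1.87, 1.20 and 1.52 at 8 weeks. Levels in MuRF1 -/- were 2.28, 2.05 and 2.05 on chow, 2.51, 2.31, 2.01 and 1.84 at 3 weeks and 2.62, 1.55 and 2.23 at 8 weeks. The MuRF1 +/+ hearts at 8 weeks were below all other MuRF1 +/+ hearts, and the MuRF1 -/- groups overlapped one another.

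At 8 weeks in MuRF1 +/+ Ppp1r3c was 1.64-fold lower than on chow (-0.71 ± 0.22, adjusted p = 0.038, within slides -0.99 and -0.63) and 1.52-fold lower than at 3 weeks (-0.61 ± 0.21, adjusted p = 0.049, within slides -0.51 and -0.27). Of 20 alternatives 5 kept the first call. Its 14 settings with no single array left out ran from -0.71 to -0.20, the last with the Y-linked covariate, with adjusted p from 0.017 to 0.72. For the second the range was -0.68 to -0.26, the last with the mean over both probes, with adjusted p from 0.023 to 0.33. The second probe, well above background on 14 arrays, gave -0.34 ± 0.20 (adjusted p = 0.24) and 0.079 ± 0.19 (adjusted p = 0.81), and the probes correlated at r = 0.465. The first call was lost without any chow array or 8-week replicate 2 or 3 (adjusted p from 0.010 to 0.18). The second was lost without any 3-week array or 8-week replicate 2 or 3 (0.023 to 0.18), and without 8-week replicate 2 the differences were -0.55 and -0.44.

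Gys1, Gbe1, Pygm and Phkg1 are set against the Y-linked level because it moves with diet. Replicate 2 of MuRF1 -/- at 8 weeks, with a Y-linked mean of -0.81 and Xist, the RNA of the inactive X, at -2.72, had Gys1 at 0.84, Gbe1 at 0.69, Pygm at 1.35 and Phkg1 at 0.55. Its 2 group mates, with Y-linked means of 1.45 and 1.34, had Gys1 at 0.88 and 0.82, Gbe1 at 0.64 and 0.58, Pygm at 1.20 and 1.31 and Phkg1 at 0.35 and 0.50. Xist was -0.50 to 0.20 in the 3-week hearts, higher than in that heart. A single heart cannot tell sex from other differences between hearts. With the Y-linked mean as a covariate, 0 of the 4 members passed at 3 weeks in MuRF1 +/+, 0 of 3 at 8 weeks, and Gys1 alone at 3 weeks in MuRF1 -/- (-1.07, adjusted p = 0.039, the highest of 13 settings from 1.2e-07). In MuRF1 +/+ all chow hearts had a high and all fenofibrate hearts a low Y-linked mean. Covariate and diet nearly coincide there, so lost calls do not tell sex from diet. Estimates in MuRF1 +/+ moved either way, Pygm at 3 weeks from -0.73 to -1.10 and Ppp1r3c at 8 weeks from -0.71 to -0.20.

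**Figure D4:**
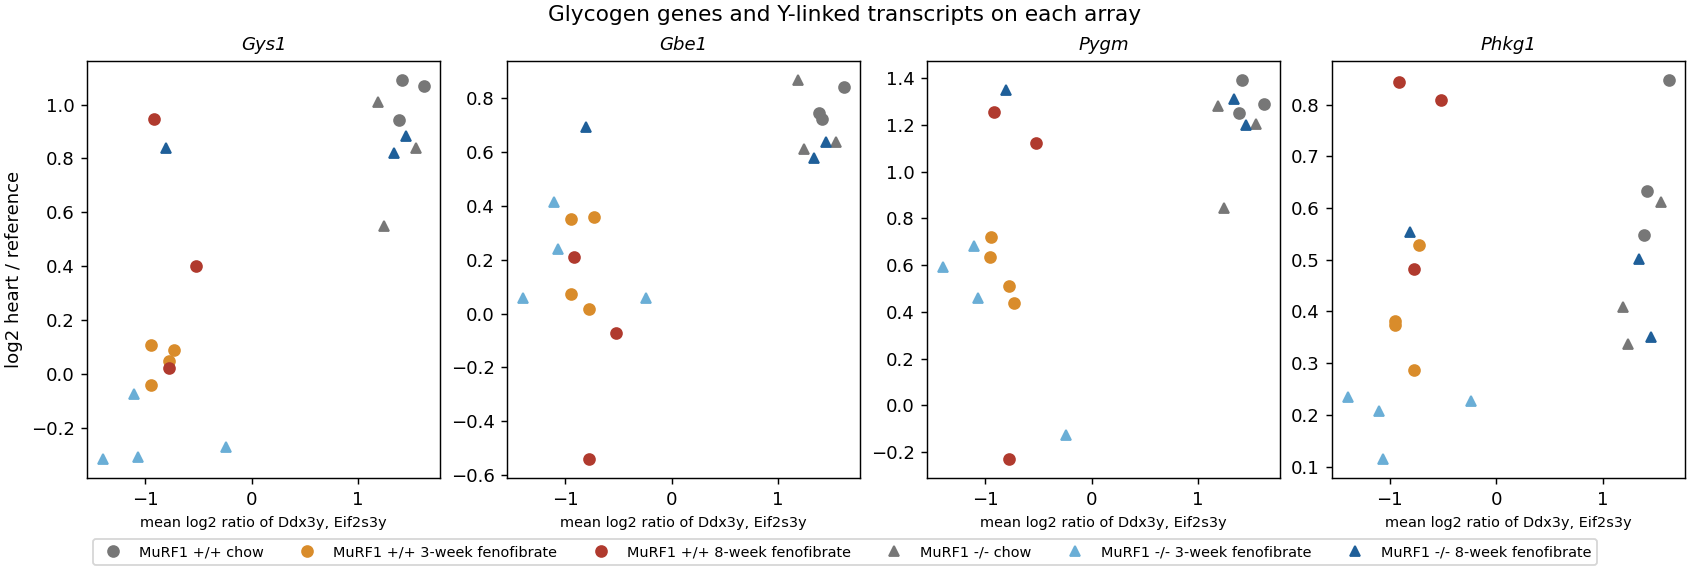
Log2 ratio of Gys1, Gbe1, Pygm and Phkg1 (y axes) against the mean log2 ratio of the Y-linked Ddx3y and Eif2s3y (x axes) on each of 20 arrays, by group. The dark blue triangle at -0.81, 1 MuRF1 -/- heart at 8 weeks, lies at 0.84 for Gys1, and the 2 others of its group at 0.88 and 0.82.

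With slide as a block, Gys1 and Gbe1 kept their calls at 3 weeks in both genotypes and at 8 weeks in MuRF1 +/+, Gys1 and Ugp2 theirs between 3 and 8 weeks in MuRF1 -/-, and 0 of 2 remained between 3 and 8 weeks in MuRF1 +/+.

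Genotypes were then compared on each diet. In limma 0 of 9 members passed on chow (0.0892% of all genes passed), at 3 weeks (0.398%), at 8 weeks (0.0892%) or averaged over diets (0.192%). In the same order 1, 3, 4 and 3 members had an unadjusted p under 0.05, beside 463, 774, 3191 and 890 of all 14567 genes. On chow groups did not overlap for 1 member (12.3% of all genes), at 3 weeks for 3 (4.28%) and at 8 weeks for 1 (19.4%). The 3 at 3 weeks were Gys1 and Phkg1, lower in MuRF1 -/- by 0.29 ± 0.14 and 0.20 ± 0.086 (adjusted p = 0.92 and 0.85), and Ugp2, higher by 0.27 ± 0.11 (adjusted p = 0.70). Of these pairs within slides, Gys1 differed by -0.32, -0.27 and -0.16.

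At 8 weeks Gbe1 was the member nearest the threshold between genotypes, 0.77 ± 0.16 higher in MuRF1 -/- (1.70-fold, 95% interval 0.44 to 1.09, adjusted p = 0.063). All 3 MuRF1 -/- values, 0.58 to 0.69, lay above the MuRF1 +/+ values of -0.54 to 0.21, and within slides the differences were 0.65 and 0.42. Differences were positive for 8 of 9 members, including Pygb (0.79 ± 0.40, adjusted p = 0.26), Ppp1r3c (0.60 ± 0.22, 0.14), Pygm (0.57 ± 0.27, 0.23) and Gys1 (0.39 ± 0.16, 0.17). Phkg1 was the 1 negative, at -0.24 ± 0.10 (adjusted p = 0.18, within slides -0.49 and -0.31). The median over the members was 0.39, against -0.026 over all genes, and 0.15 without MuRF1 +/+ replicate 2, which was the lowest value for the 4 genes named with Gbe1. Without that array Gbe1 differed by 0.56, Ppp1r3c by 0.44, Pygb by 0.18, Gys1 by 0.17, Pygm by 0.097 and Phkg1 by -0.36. Of the MuRF1 -/- hearts 2 of 3 and 0 of 3 MuRF1 +/+ hearts had a high Y-linked level here.

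Whether the difference from chow on fenofibrate differed between genotypes was tested as a difference of differences. At 3 weeks 0 of 9 members passed (0% of all genes). An unadjusted p under 0.05 was reached by 0 members and by 357 of all 14567 genes. The estimates for Gys1, Gbe1, Pygm and Phkg1 were -0.059, 0.056, 0.027 and 0.027. Their 95% intervals were -0.49 to 0.38, -0.37 to 0.49, -0.73 to 0.78 and -0.25 to 0.30, so responses of unequal size remain possible within them. At 8 weeks 0 of 9 passed (0.00686% of all genes). An unadjusted p under 0.05 was reached there by 3 members and by 2446 of all 14567 genes. The 3 estimates were Gbe1 at 0.83 ± 0.22 (95% interval 0.37 to 1.29, adjusted p = 0.22), Gys1 at 0.62 ± 0.22 (0.16 to 1.09, 0.22) and Ppp1r3c at 0.72 ± 0.31 (0.071 to 1.38, 0.27). Without MuRF1 +/+ 8-week replicate 2 these were 0.63, 0.41 and 0.56. The same 8-week contrast was 1.27 for Ddx3y, 1.81 for Eif2s3y and -1.76 for Xist. Sex and the response to the drug thus cannot be told apart in it. The fall of Gys1, Gbe1 and Ppp1r3c at 8 weeks in MuRF1 +/+ is thus not shown to differ from the response of MuRF1 -/-. Without 8-week MuRF1 +/+ replicate 1, 2 members passed in this test and 5 in the 8-week genotype comparison, where 1 passed without replicate 3.

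Of 34 other genes of glycogen turnover and its glucose supply, 31 were tested, 15 passed in at least 1 comparison and 16 in none. Higher and lower were 0 and 6 at 3 weeks in MuRF1 +/+, 0 and 4 at 3 weeks in MuRF1 -/-, 2 and 4 at 8 weeks in MuRF1 +/+ and 0 and 1 at 8 weeks in MuRF1 -/-. From 3 to 8 weeks they were 5 and 1 in MuRF1 +/+ and 8 and 2 in MuRF1 -/-. In either direction 19.4% of the list passed at 3 weeks in MuRF1 +/+ (24.2% of all genes), 12.9% at 3 weeks in MuRF1 -/- (26.4%), 19.4% at 8 weeks in MuRF1 +/+ (14.0%) and 3.23% at 8 weeks in MuRF1 -/- (1.83%). Between 3 and 8 weeks 19.4% passed in MuRF1 +/+ (17.5%) and 32.3% in MuRF1 -/- (31.5%). Of the list 0 passed in the genotype and response comparisons. Medians of the list were -0.14, -0.13, -0.21 and 0.064 against chow in the order given, beside all-gene medians of 0.010, -0.0080, 0.029 and -0.0077. Without 8-week MuRF1 +/+ replicate 2 the list median at 8 weeks in MuRF1 +/+ was -0.0034. These counts moved with single arrays, and the 8-week MuRF1 +/+ count of 6 was 14 without 8-week replicate 1, 2 without 8-week replicate 2 and 1 without chow replicate 1 or 3.

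Gaa, the acid glucosidase that degrades glycogen in lysosomes, fell at 3 weeks in both genotypes (-0.98 ± 0.20, adjusted p = 0.0020, and -1.22 ± 0.20, adjusted p = 0.00031). It was higher again at 8 weeks than at 3 (0.80 ± 0.20 and 1.18 ± 0.20), the pattern of Gys1 in MuRF1 -/-. Hk1, the hexokinase that phosphorylates glucose, was lower than on chow at 3 weeks (-0.85 ± 0.10 and -0.81 ± 0.10) and at 8 weeks (-0.38 ± 0.11 and -0.46 ± 0.11) in MuRF1 +/+ and MuRF1 -/-. From 3 to 8 weeks it was higher (0.47 ± 0.10, adjusted p = 0.0036, and 0.35 ± 0.10, adjusted p = 0.013). Against chow it was the 1 gene of the list that passed at 8 weeks in MuRF1 -/-, and that call was lost without any 1 of the 6 arrays. Hk2, the insulin-responsive hexokinase, was lower at 8 weeks than at 3 (-0.65 ± 0.14 and -0.52 ± 0.14).

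Nhlrc1, which encodes the ubiquitin ligase malin of the laforin and malin pair that keeps glycogen soluble, fell in MuRF1 +/+ at 3 weeks (-0.83 ± 0.22) and 8 weeks (-0.81 ± 0.23), and in MuRF1 -/- was 0.60 ± 0.22 higher at 8 weeks than at 3. Pygl, the liver phosphorylase, rose at 8 weeks in MuRF1 +/+ (0.57 ± 0.17), as did the glucose transporter gene Slc2a1 (0.53 ± 0.14). Among phosphatase 1 genes, the catalytic subunit Ppp1ca fell at 3 weeks in MuRF1 -/- (-0.54 ± 0.18) and was 0.66 ± 0.18 higher at 8 weeks than at 3. The glycogen-targeting subunit Ppp1r3g (0.54 ± 0.12) and the inhibitor Ppp1r2 (0.52 ± 0.13) were higher at 8 weeks than at 3 in MuRF1 +/+.

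Akt2, the insulin signalling kinase, was 0.60 ± 0.20 higher at 8 weeks than at 3 in MuRF1 -/-. Ppp1r3b, Ppp1r3f, Ppp1cc, Prkaa2 and Gsk3a also passed in at least 1 comparison. Ppp1r3e, Pgm2 and Prkag3 were too dim to be tested.

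Levels of the members are compared across the 20 arrays as a description, since the arrays share groups and slides. Pygm and Pygb were the most alike pair, with r = 0.962, and 0.947 after group means were removed. Gys1 correlated at 0.859 with Pygm and 0.714 with Gbe1, and at 0.743 and 0.765 within groups. Gbe1 and Phkg1, which both fell at 3 weeks, correlated at 0.205 over the arrays and at 0.546 within groups. Ugp2 ran against Phkg1 (r = -0.687, within groups -0.238).

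Of all tested genes, those most like each member over the 20 arrays were, for Gys1, Uba1 and the probe named NAP101637-1 (r = 0.976 each) and Abhd12 (0.971). For Pygm they were Fitm1 (0.969), Fem1al (0.969) and Me3 (0.965), and for Pygb Psmc3 (0.981), Bsg (0.973) and Idh2 (0.971). Uba1 encodes the main ubiquitin-activating enzyme, Psmc3 a proteasome ATPase and Idh2 the mitochondrial isocitrate dehydrogenase. For Gbe1 they were Chac2 (0.935), Gm14325 (0.934) and Ciapin1 (0.931), and for Phkg1 they included Hnmt (0.913) and Rogdi (0.844). Gyg was most like Ctps (0.879), Tmed7 (0.812) and Tomm70a (0.795), Ugp2 most like Wwp1 (0.892), Vps29 (0.844) and Asap2 (0.841). Ppp1r3c was most like Fam98a (0.807), Tollip (0.802) and Akr1b3 (0.798). Phka1, near background, was most like Nod2 (0.798), Ttc1 (0.775) and Pnp (0.722).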

How the data were processed

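The genes and all lists were chosen with earlier results of these data known. The deposited scanner files hold spot intensity (Agilent Feature Extraction 9.5.3.1, design 014868, per the file headers), not normalized, with 0 or 1 flags for spots above background, saturated or outlying. The deposited log10 ratio of Cy5 over Cy3 is Agilent's, after its own background and dye correction. The authors' log2 table, deposited as the series matrix, comes with no account of its making in the sources used here. Against Agilent's ratio in log2 its slopes were 0.949 to 0.994 over 1091 bright probes, which settles direction and scale. Column medians were -0.0060 to 0.0091, and the centring is unknown. The labels' protocol text names Cy3 for heart RNA, the channel labels Cy5; the channel labels were used, and no dye was swapped.

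Intensities were corrected with normexp (offset 50) and loess (span 0.3, control spots at weight 0) in limma 3.58.1 and data.table (version 1.17.8) under R 4.3.3. Outlier spots were treated as missing, as were 7 spots whose background exceeded the signal by over 50, all on MuRF1 -/- chow replicate 2. Spots were averaged per probe, and the brightest probe stood for a gene, kept if above background in Cy5 on 3 or more arrays. No member value was missing and 0 member spots were saturated. Names came from a RefSeq list of assembly GRCm38.p6 (22951 probes by accession, 6659 by symbol, 3109 by synonym, 8455 as filed).

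One limma model of 6 group means gave 12 comparisons, with a trended prior and Benjamini-Hochberg adjustment at 0.05, and was tested on simulated data. For 4 arrays the header names another slide than the scan, which was followed. Values within slides and list medians without single arrays were added after seeing the data. All 9 genes were named. Of the other glycogen genes, those that passed were named, with values for the 10 with the largest differences, as were the 3 genes most correlated with each member. Some results are not reported here. Replicates are biological, per the labels, and the number of arrays limits the precision. Same-numbered arrays of different groups deviated alike no more than others (mean r -0.0017 over 46 pairs, 0.00094 over 120 other pairs). The alternatives were other background corrections, the heart channel alone, filters, probe means, blocks, weights, fewer arrays, the Y-linked level and an untrended prior.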

Additional observations from a re-analysis of the deposited data

Results flagged for a closer look

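Gyg on replicate 3 of the 3-week MuRF1 -/- group read 1.04, while the nearest of the other 3 hearts read 1.36. Its gap was 0.836 of the group's range, above Dixon's 95% critical value for 4 samples. Chance gives such a value in about 1 of 20 groups, and 18 groups were examined.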

How the results depend on the processing

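Over the 19 pairs of a member and a comparison past the threshold, 392 alternatives gave a value, 257 kept the call, 135 lost it and 0 reversed. Counts of members past the threshold moved as follows. At 3 weeks in MuRF1 +/+ (4) they were 2 with all spots in the background fit, Agilent's ratio, the series matrix, the heart channel alone, no filter on dim probes or slide as a block, and 0 with the Y-linked covariate. At 8 weeks in MuRF1 +/+ (3) they were 1 with Agilent's ratio, the heart channel alone or without the 2 arrays that stood apart, and 0 with the Y-linked covariate or only the compared groups. At 3 weeks in MuRF1 -/- (4) they were 2 with all spots, the series matrix, no filter, the strict filter or slide as a block, and 1 with the Y-linked covariate. From 3 to 8 weeks in MuRF1 +/+ (2) they were 0 with all spots, the series matrix, slide as a block or only the compared groups, 1 with Agilent's ratio, no filter, probe means or an untrended prior, 4 without the 2 arrays and 5 with array weights. From 3 to 8 weeks in MuRF1 -/- (6) they were 2 with slide as a block or the Y-linked covariate. From 0, array weights gave 1 between genotypes at 3 weeks, 3 at 8 weeks, 2 averaged over diets and 2 in the 8-week response. At 8 weeks Agilent's ratio, the heart channel, the strict filter and an untrended prior gave 1 between genotypes, as did leaving out the 2 arrays in the average over diets. Leaving out 1 array gave 2 to 3 at 3 weeks in MuRF1 +/+, 1 to 5 at 8 weeks, 1 to 5 at 3 weeks in MuRF1 -/-, 0 to 3 and 3 to 6 from 3 to 8 weeks in MuRF1 +/+ and MuRF1 -/-, 0 to 5 between genotypes at 8 weeks, 0 to 1 averaged over diets and 0 to 2 in the 8-week response.

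For the other glycogen genes, array weights gave 13, 14, 8 and 4 in the comparisons with chow (MuRF1 +/+ at 3 and 8 weeks, then MuRF1 -/-; 6, 6, 4 and 1 as reported), 11 and 16 from 3 to 8 weeks (6 and 10), 1 on chow between genotypes, 5 at 8 weeks, 1 averaged and 7 in the 8-week response (0 each). Without the 2 arrays they were 11 and 8 at 3 weeks, 4 at 8 weeks in MuRF1 -/-, and 1 between genotypes on chow and averaged. The Y-linked covariate gave 1, 0, 2 and 0 against chow and 3 from 3 to 8 weeks in MuRF1 -/-. With only the compared groups they were 11 at 3 weeks and 0 at 8 weeks in MuRF1 +/+, 4 at 8 weeks in MuRF1 -/- and 2 from 3 to 8 weeks in MuRF1 +/+. At 8 weeks in MuRF1 +/+ all spots, Agilent's ratio and slide as a block gave 3. At 8 weeks in MuRF1 -/- Agilent's ratio gave 2, and the series matrix, no filter, probe means, slide as a block and the replicate block gave 0. From 3 to 8 weeks in MuRF1 +/+ Agilent's ratio gave 11 and the heart channel 10. Leaving out 1 array gave 3 to 7 at 3 weeks and 1 to 14 at 8 weeks in MuRF1 +/+, 0 at 8 weeks in MuRF1 -/-, 5 to 10 from 3 to 8 weeks in MuRF1 -/-, 0 to 4 between genotypes at 8 weeks, 0 to 1 averaged and 0 to 6 in the 8-week response. The cause of these shifts was not tested.

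The replicate block rests on numbers that only name the arrays, 5 of 20 of which correlated best with their own number. With it the calls of Pygm at 3 weeks (adjusted p = 0.10 in MuRF1 +/+, 0.11 in MuRF1 -/-) and of Gbe1 from 3 to 8 weeks in MuRF1 -/- (0.066) were lost, and the other 16 held. Slides within a comparison hold 1 array of a group, so within-slide values carry no error. No scaling moved the median of all genes by over 0.1. Phka1 lay near background, which limits what its values show.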
